A study of Arabidopsis thaliana with 4 samples.

Results

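Cells of MM2d, a suspension-cultured line of Arabidopsis thaliana, were compared 3 days and 1 day after dilution into new medium. The comparison rests on 2 of the 4 arrays of the series, 1 for day 3 and 1 for day 1, and days 5 and 7 are given as further values. Every probe set other than the AFFX controls entered it, which left 22746 of 22810. A signal below 25 was raised to 25, and a probe set was called measured where either array lay above 25, which held for 14236. The labels give both groups the same line, medium and culture conditions, and a different time since dilution. An early stationary culture, 7 days old, had been diluted 5 ml into 100 ml of MS-salt medium with 3% sucrose, the auxin NAA at 0.5 mg/l and the cytokinin kinetin at 0.05 mg/l. The flasks rotated at 130 rpm in continuous darkness at 27 °C. Total RNA was labelled with biotin and hybridised to ATH1 arrays, which carry short probes to most Arabidopsis genes. MM2d is a single undifferentiated line fed with sugar and hormones, so it holds none of the organs of a plant. The sources used here do not give whether the days came from 1 flask or several, and with 1 array per day no difference has a replicate error or a test.

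A plant culture diluted out of stationary phase first passes through a lag, in which cells take up nutrients and rebuild their ribosomes before they divide. Once division is under way, sugar is taken up, broken down and turned into walls, membranes and stored products. Heat shock proteins and other chaperones help new or damaged proteins to fold, and vacuolar and secreted proteases take proteins apart or trim them.

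The arrays had median signals of 41.4 on day 3 and 36.3 on day 1, and 13767 (60.5%) and 13023 (57.3%) of the probe sets lay above 25. Probes at the 3' end of the actin control gave 1.09 times the signal of those at the 5' end on day 3 and 1.45 times on day 1, a sign of how intact the RNA was. The same ratio was 1.22 on day 3 and 1.59 on day 1 for ubiquitin, and it was 0.950 and 0.979 for GAPDH. Of 8 markers of green cells, 4 lay above 25 on day 3 and 5 on day 1. PRK had 5.07 on day 3 and 6.88 on day 1, PORB 5.69 and 45.6, LHCB4.1 81.8 and 85.7, and RCA 112 and 152. The seed markers PAP85 and OLEO3 had 10.4 and 31.1 on day 3, against 3.90 and 28.2 on day 1, and the root hair expansins EXPA7 and EXPA18 lay below 25 on both days.

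Of the measured probe sets, 621 (4.36%) had at least 2 times the day 1 signal on day 3, and 254 (1.78%) had at most 0.5 times it. Together 6.15% differed by 2-fold or more. The median log2 ratio, day 3 over day 1, was 0.05 with quartiles of -0.24 and 0.35. Of the 621, 93 were at least 4-fold higher and 150 came from below 25 on 1 of the arrays, where a ratio is a lower bound. Of the 254, 34 were at least 4-fold lower and 43 involved a signal below 25. The limit of 2-fold ran through a continuous range, with log2 ratios of 1.00054 just inside it and 0.999973 just outside it. Genes known only by a locus code accounted for 271 (43.6%) of the higher and 97 (38.2%) of the lower probe sets, and for 49.0% of those measured. Probe sets with a gene symbol gave 53 (8.53%) and 14 (5.51%), and 7.40% of those measured. Another 286 and 134 carry no gene name here, 46.1% of the higher and 52.8% of the lower, while unnamed probe sets made up 41.6% of those measured. Counted by gene, 3.84% of the 7920 measured genes passed 2-fold upward and 1.39% downward, and 45.4% had a log2 ratio below 0.

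**Figure D1:**
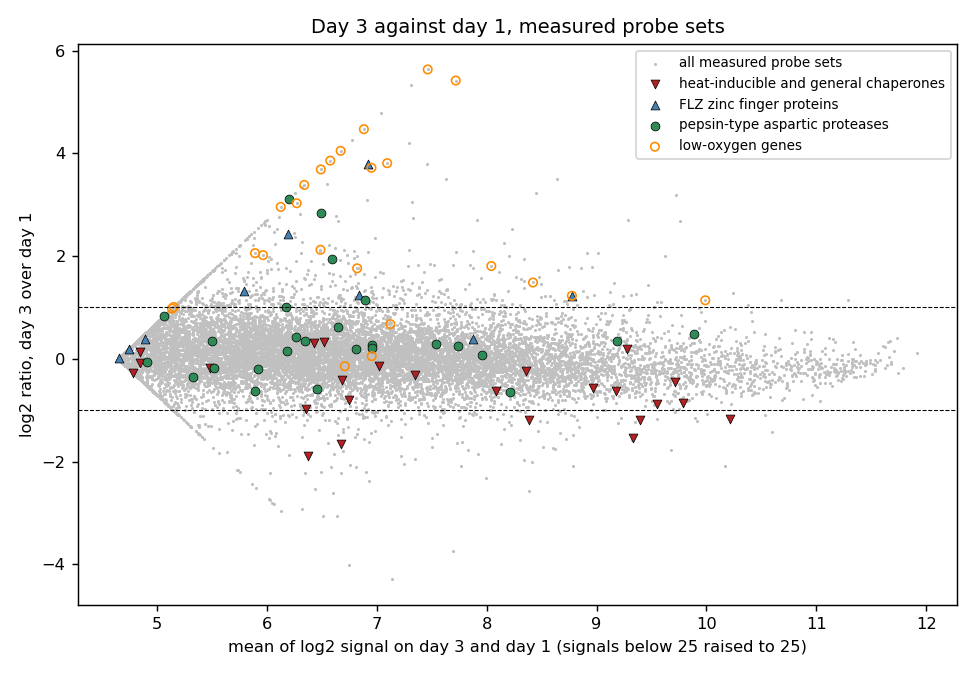
Log2 ratio of signal, day 3 over day 1, against the mean log2 signal of both arrays for the 14236 measured probe sets (grey), with dashed lines at 2-fold. The chaperones (red) lie mostly below 0, the FLZ proteins (blue) and some aspartic proteases (green) reach above 2-fold, and the low-oxygen genes (orange rings) hold the 2 uppermost points.

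The split depended on how the arrays were scaled. As deposited, 621 of the 875 probe sets past 2-fold were the higher ones (71%). The share was 46.8% with both arrays set to a common median, 54.4% with the hybridisation controls, 60.0% after quantile normalization and 61.8% with a common 75th percentile. The median log2 ratio of all measured probe sets was 0.05 as deposited and -0.14 with a common median. Divided by signal into 5 equal bins, in the brightest bin, where the higher signal was at least 285, the median was -0.14, and in the bin next to the faintest it was 0.13. Function classes were therefore read against the median of all measured genes, 0.05. Their counts at 2-fold stand beside shares of 3.84% higher and 1.39% lower over all measured genes. Of the measured probe sets, 1213 were measured only through day 3 and 469 only through day 1, so their ratios could fall on that side of 0 alone. In whole cultures, fewer cells of a type and less RNA per cell cannot be told apart.

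Low-oxygen genes gave the 2 highest ratios and are only counted here; some of the next ratios belong to probe sets with no gene name here. Of the 24 measured, 20 passed 2-fold upward and 0 downward, and their median log2 ratio was 2.09. The genes named below were chosen outside their list, apart from 1 that stands on it. Class counts and medians, and totals over all genes or probe sets, keep them, and 20 of the 621 higher probe sets are theirs.

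Among probe sets naming 1 gene outside that list, the largest ratio with both signals above 25 belonged to a gene for an FLZ zinc finger protein. These small plant proteins bind the sugar- and energy-sensing kinase SnRK1. AT3G22550 stood at 448 on day 3 and 32.5 on day 1, 13.8-fold higher, and 66.1 and 440 on days 5 and 7. A second FLZ gene, AT1G74940, had 170 on day 3 and 31.4 on day 1 (5.41-fold), and close to 50 on the later days, 50.2 and 50.1. AT2G25690 had 87.8 and 35.0 (2.51-fold), AT4G17670 had 176 and 74.6 (2.36-fold), and AT5G47060, which is also on the low-oxygen list, had 670 and 286 (2.34-fold) on days 3 and 1. Thus 5 of the 9 measured FLZ genes passed 2-fold upward and 0 downward, beside 3.84% and 1.39% of all measured genes. AT2G44670 (268 on day 3 and 204 on day 1) and AT5G11460 (33.8 and 25.8) differed less, each by 1.31-fold. AT5G49120 and AT5G20700 were below 25 on day 1 and at 28.6 and 25.2 on day 3. The median log2 ratio of the family was 1.23, against 0.05 for all genes. The family was listed after its leading members had been seen among the largest differences, so its counts are a description of those members.

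Aspartic proteases of the pepsin type, secreted or vacuolar enzymes that cut proteins, held some of the next largest ratios. AT4G16563 had 239 on day 3 and 33.7 on day 1 (7.11-fold) and went on to 597 and 1007 on days 5 and 7. AT5G19120 had 217 on day 3, against a signal below 25 on day 1, at least 8.67-fold higher, with 133 and 321 on days 5 and 7. AT1G66180 had 189 on day 3 and 49.2 on day 1 (3.84-fold), and 30.6 and 33.4 on the later days, so its signal was high on day 3 alone. AT1G44130 (177 on day 3, 80.0 on day 1) and AT1G05840 (102 and 50.8) were 2.21-fold and 2.02-fold higher. These 5 of 26 measured genes made up all that passed 2-fold upward, beside 3.84% of all measured genes, and none passed downward. The rest of the family differed less: the median log2 ratio was 0.27, and 7 genes lay below 0. AT1G01300 was the lowest, at 237 on day 3 and 373 on day 1. This list too was drawn up after its leading members had been seen.

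Serine carboxypeptidase-like proteins, vacuolar and secreted enzymes of which some act as acyltransferases, had a median log2 ratio of 0.58 over 12 measured genes. Of them 2 passed 2-fold upward, beside 3.84% of all measured genes, and 0 downward, and 3 were measured only through day 3. The gene scpl48 had 120 on day 3 and 35.6 on day 1 (3.38-fold), and scpl46 had 70.9 on day 3 and a signal below 25 on day 1, at least 2.84-fold. The subtilases, another large protease family, stood on the other side, with a median of -0.18 over 5 genes and none at 2-fold. Among the 9 autophagy genes, ATG8E, a ubiquitin-like protein of the autophagosome membrane, was 2.61-fold higher, with 182 on day 3 and 69.8 on day 1. ATG8G had 193 on day 3 and 290 on day 1, and ATG3, the enzyme that joins ATG8 to lipid, had 134 and 210, so members of 1 pathway lay on both sides of 0.

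**Figure D2:**
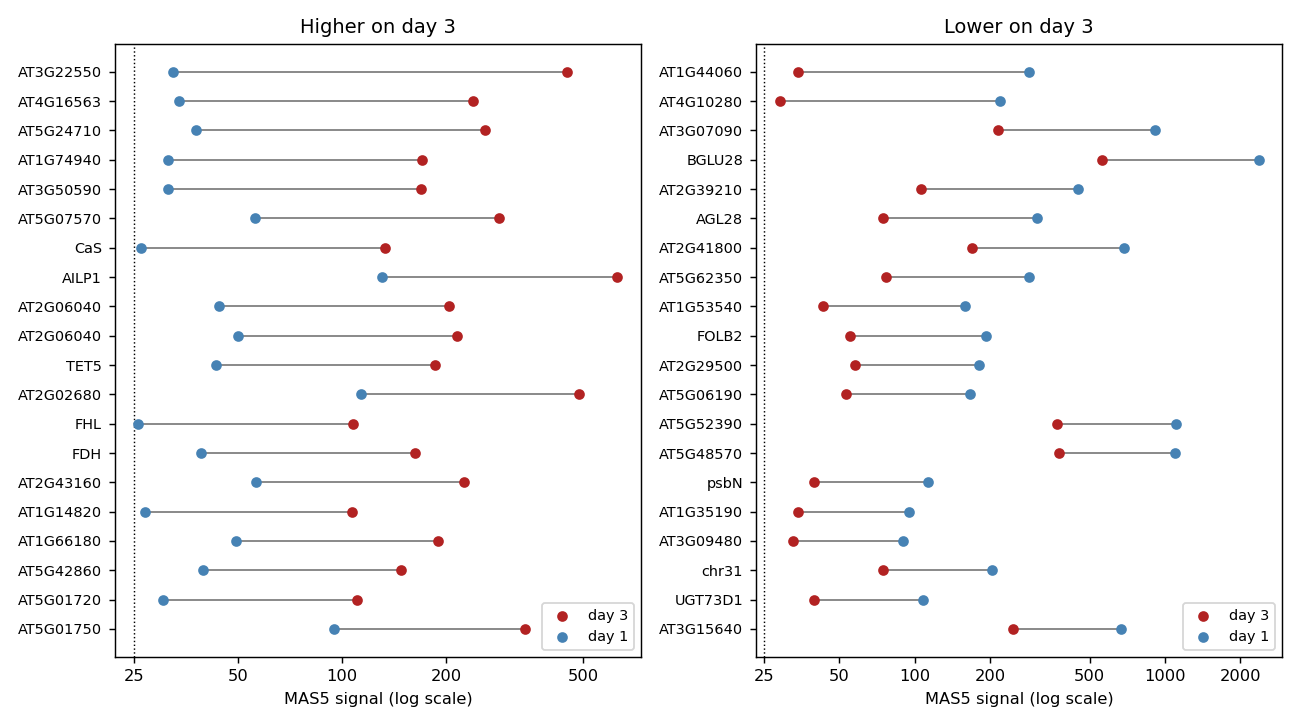
MAS5 signal on day 3 (red) and day 1 (blue), on a log axis, of the 20 probe sets with the largest ratios in each direction among those naming 1 gene, above 25 (dotted line) on both arrays and outside the low-oxygen list. On the left AT3G22550 spans 448 to 32.5, and on the right AT1G44060 spans 34.3 to 288; AT2G06040 appears with 2 probe sets.

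Endocytosis genes show how far a single probe set can be trusted. The TPLATE complex gathers cargo at the plasma membrane ahead of clathrin. AT5G24710, a subunit of it, had 259 on day 3 and 37.7 on day 1 by one probe set (6.86-fold) but 336 and 230 by the other, a log2 ratio of 0.54. AT3G50590, another subunit, had 169 and 31.3 by one probe set (5.41-fold) but 427 and 453 by the other, a log2 ratio of -0.09. For the epsin AT2G43160, a membrane-bending clathrin adaptor, both probe sets were higher on day 3, with log2 ratios of 2.00 and 0.80. In each of these genes the probe set with the larger ratio was the fainter one. The subunit TPLATE itself had 49.1 on day 3 and 77.6 on day 1. Over the 19 measured genes of this group, listed after these ratios had been seen, the median log2 ratio was 0.20, against 0.05 for all genes.

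Such disagreement was not limited to these genes. In the 88 genes with 2 measured probe sets the difference between their log2 ratios had a median size of 0.51, and the SD of 1 probe set about its gene was 0.60, beside an SD of 0.55 over all measured probe sets. Of these 88 genes, 24 had a probe set at least 2-fold higher and 1 had a probe set at least 2-fold lower. Over all measured probe sets the shares were 4.36% and 1.78%. In the 24, the other probe set lay above 0 in 19 and was at least 2-fold higher in 2. In 17 of them the one past 2-fold was the fainter. AT2G06040 was 1 of the 2, with 204 and 216 on day 3 against 44.1 and 49.8 on day 1. In the 1 gene past 2-fold downward, the other probe set did not lie below 0. For AT1G32810 the probe sets gave at least 4.62-fold and a log2 ratio of 0.35, and for the kinase FU, which acts in cytokinesis, 1.74 and 0.05. The day 1 array also had the higher 3' to 5' ratios for actin and ubiquitin. By gene length, the median log2 ratio was 0.01 in the shortest of 5 equal bins and 0.10 in the longest, and the share at least 2-fold lower was 2.44% and 0.50%. The part of RNA quality or length in any single ratio was not tested. Genes without a second probe set allow no such check, and whether the spread of the 88 genes holds for them was not tested.

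Several classes of the cell wall and cell surface had medians above that of all genes. Class III peroxidases, which cross-link or loosen walls, had 5 of 18 measured genes past 2-fold upward and 0 downward. The shares over all measured genes were 3.84% and 1.39%, and the median log2 ratio of the peroxidases was 0.71. AT5G64120 had 131 on day 3 and a signal below 25 on day 1, at least 5.24-fold, and 40.4 and 750 on days 5 and 7. AT5G17820 had 136 on day 3 and 63.8 on day 1, and AT2G37130 had 51.1 and a signal below 25. Of the 18 genes, 7 were measured only through day 3 and 1 only through day 1. The class stood 0.66 above all genes, and 0.26 above with the limit for low signals at 10. A pair of germin-like genes, secreted proteins of the cupin fold, were also higher: AT1G74820 had 80.7 on day 3 and 32.6 on day 1 (2.48-fold), and AT3G10080 had 193 and 78.9 (2.45-fold). AT4G10280, another cupin, went the other way, with 28.9 on day 3, against 220 on day 1, and 154 and 148 on the later days (7.62-fold lower on day 3).

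Xyloglucan-modifying genes, whose enzymes cut and rejoin the chains that tie cellulose together, had a median log2 ratio of 0.51 over 4 measured genes, none at 2-fold. EXGT-A3 had 350 on day 3 and 203 on day 1, and XTH18 had 387 and 244. The cellulose synthase-like family had a median of 0.41 over 7 genes, led by CSLC12 with 108 on day 3 and 65.7 on day 1. AT5G42860, a companion protein that holds the cellulose synthase complex to microtubules, was 3.76-fold higher, with 149 and 39.5. The expansin EXPA20 had 70.0 on day 3 and 29.5 on day 1 (2.38-fold), but the 10 measured expansins had a median of 0.07. Endoglucanases of family GH9 had a median of -0.14 over 5 genes, and trichome birefringence-like proteins 0.05 over 11, none at 2-fold. Pectin methylesterases alter the stiffness of pectin: PMEPCRF had 111 on day 3 and a signal below 25 on day 1, at least 4.43-fold. AT5G62350, an invertase or pectin methylesterase inhibitor, had 77.03 on day 3 and 288 on day 1 (3.73-fold lower), and 1762 by day 7. AT2G41800, a wall protein of the DUF642 family, had 169 and 684 (4.04-fold lower), with 536 and 655 on days 5 and 7, so day 3 was the low point of the course.

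Tetraspanins, membrane proteins that organise patches of the plasma membrane, had 3 of 7 genes at least 2-fold higher, beside 3.84% of all measured genes. The 3 were TET5, TET2 and TET9, and the median log2 ratio of the family was 0.81. TET2 was measured only through day 3, with 101 on day 3 and a signal below 25 on day 1, at least 4.04-fold. TET9 had 165 on day 3 and 76.6 on day 1. TET3 was the member below 0, with 64.9 and 93.8. The 9 measured prenylated Rab acceptors, small proteins of membrane traffic, had a median of 0.36 with 8 above 0 and none at 2-fold. In the vacuole, the proton pump subunit VHA-A3 had 468 on day 3 and 273 on day 1, and VHA-A2 had 121 and 83.98, while VHA-A1, which sits in the trans-Golgi network, had 254 and 253. SNF7.2, a subunit of the ESCRT-III complex that pinches off vesicles, was 2.53-fold higher, with 101 on day 3 and 39.9 on day 1.

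Among genes of carbon metabolism, AT2G31390, a fructokinase, had 798 on day 3 and 232 on day 1 (3.43-fold), one of the strongest signals among the genes past 2-fold. ATP-citrate lyase, which makes cytosolic acetyl-CoA for waxes, sterols and flavonoids, had a median log2 ratio of 0.71 over 4 genes. ACLA-3 had 175 on day 3 and 67.5 on day 1 (2.59-fold), ACLA-2 had 210 and 107 (1.97-fold), and ACLA-1 had 627 and 461, while ACLB-1, for the other subunit, had 180 and 227. FDH, formate dehydrogenase of mitochondria, had 162 and 38.9 (4.17-fold). The amino acid transporter gene AT2G41190 had 88.8 and 26.0 (3.41-fold), and AT1G14820, a lipid-transfer protein of the Sec14 type, had 107 and 26.8 (3.99-fold). The tricarboxylic acid cycle as a class stayed near the background, with a median of -0.02 over 12 genes and none past 2-fold.

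Among genes of respiration, AT3G15640, subunit Vb of cytochrome c oxidase, had 247 on day 3 and 670 on day 1 (2.71-fold lower), and 217 and 138 on the later days. The alternative NADH dehydrogenases NDB2 and NDB4, which feed electrons to ubiquinone without pumping protons, had 106 on day 3 against 219 on day 1, and 881 against 1630. NDC1 had 96.5 on day 3 and 84.3 on day 1, and NDB3 had 28.7 on day 3 and a signal below 25 on day 1. Of 13 measured genes encoded in the mitochondrion, 12 lay below 0 and none reached 2-fold, with -0.27 as their median log2 ratio.

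Chaperones were the class with the lowest median among those with at least 3 measured genes. Of 25 measured, 6 passed 2-fold downward, 0 upward, and 21 lay below 0. Of all measured genes, 1.39% passed 2-fold downward and 45.4% lay below 0. The quartiles and median of the chaperones' log2 ratios were -0.98, -0.57 and -0.18. The small heat shock proteins AT1G53540 and AT2G29500, which hold unfolding proteins in solution, had 43.2 and 57.7 on day 3, against 159 and 181 on day 1 (3.69-fold and 3.14-fold lower). On days 5 and 7 they were at 12.9 and 27.6, and at 28.1 and 25.2, near or below the limit of 25. AT5G48570, a heat-inducible prolyl isomerase of the FKBP type, had 379 on day 3 and 1100 on day 1 (2.91-fold), then 394 and 358. AT3G09440, a cytosolic HSP70, had 792 on day 3 and 1791 on day 1 (2.26-fold), and AT3G12050, an activator of the HSP90 ATPase, had 446 and 1021 (2.29-fold). AT1G23100, a chaperonin of the GroES type, had 222 and 503 (2.27-fold), and 68.3 and 13.4 on days 5 and 7. None of these 6 genes was back near its day 1 signal on day 5 or 7.

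Co-chaperones that work with HSP70 and HSP90 had smaller negative ratios. Hop3 and Hop2, which bridge HSP70 and HSP90, had 58.2 and 411 on day 3, against 114 and 611 on day 1. AT4G02450, a p23-like protein that binds HSP90, had 552 and 1017, Hsp70-2 had 656 and 1196, and Fes1A, which protects cytosolic HSP70, had 219 and 336. The cyclophilin SQN had 466 and 722 by the probe set that was measured. The members above 0 were AT5G51440 (103 on day 3, 81.7 on day 1) and AT5G58110 (660 and 581), and Fes1B and Fes1C, none of which reached 2-fold. The chaperone list was put together after AT1G53540, AT2G29500 and AT5G48570 had been seen among the largest differences. Several of these genes lie in the brightest bin of probe sets, whose median log2 ratio was -0.14. The class stood 0.62 below all genes as deposited and 0.46 below after quantile normalization.

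**Figure D3:**
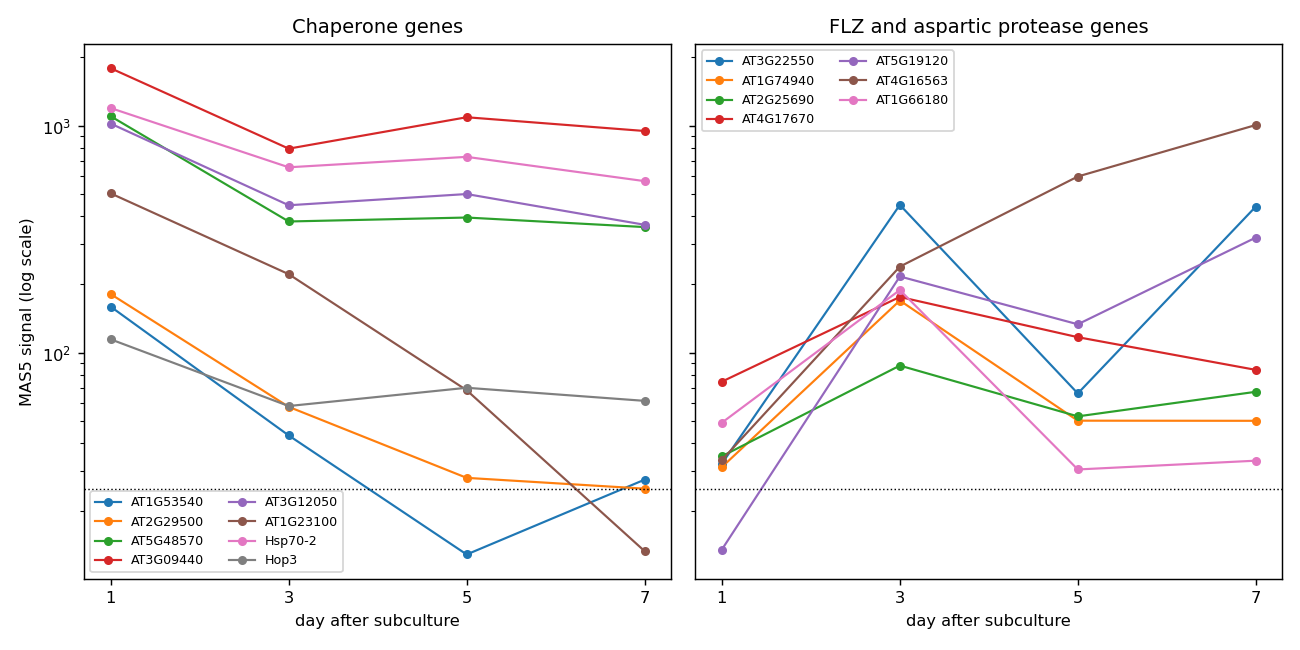
MAS5 signal on a log axis by day after subculture, 1 array per day, for 8 chaperone genes (left) and 7 genes of the FLZ and aspartic protease families (right), with the limit of 25 dotted. The chaperones are highest on day 1, and on the right AT3G22550 and AT1G66180 are high on day 3 and low on day 5, while AT4G16563 goes on upward to 1007 on day 7.

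The CCT chaperonin, a ring of 8 kinds of subunit that folds actin and tubulin, lay slightly below 0 in all 8 genes, from AT3G11830 (799 on day 3, 1146 on day 1) to AT5G20890 (1547 and 1647). Its median log2 ratio was -0.24 and none of its genes reached 2-fold; it too was listed after the largest differences had been seen. After quantile normalization the class lay 0.03 below all genes, so its distance from them rested on the scaling. The endoplasmic reticulum's own folding and quality control genes had a median log2 ratio of 0.06 over 14 genes. The calreticulin CRT1b had 704 on day 3 and 424 on day 1, and BZIP60, a transcription factor of the unfolded protein response, had 247 and 370.

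Genes that make and process RNA had small negative ratios in most members, and none of those measured reached 2-fold in these classes. The nuclear RNA polymerase subunits had a median log2 ratio of -0.30 over 12 genes, 9 below 0, with NRPB9B at 155 on day 3 and 266 on day 1. Splicing and LSM proteins, which form the spliceosome and the rings that guard RNA ends, had a median of -0.23 over 20 genes, 17 below 0. PRP39 had 229 on day 3 and 418 on day 1, and LSM6A had 192 and 291. Ribosome assembly genes had a median of -0.33 over 6, with the nucleolar helicase PRH75 at 492 and 694. The proteins that edit or process organelle transcripts had -0.25 over 14. Relative to all genes the RNA polymerase, splicing and ribosome assembly classes stood at -0.35, -0.28 and -0.37 as deposited, and at -0.22, -0.16 and -0.26 after quantile normalization. Several of their genes, NRPB12, IMP4 and PRH75 among them, lie in the brightest bin of probe sets, whose median log2 ratio was -0.14.

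**Figure D4:**
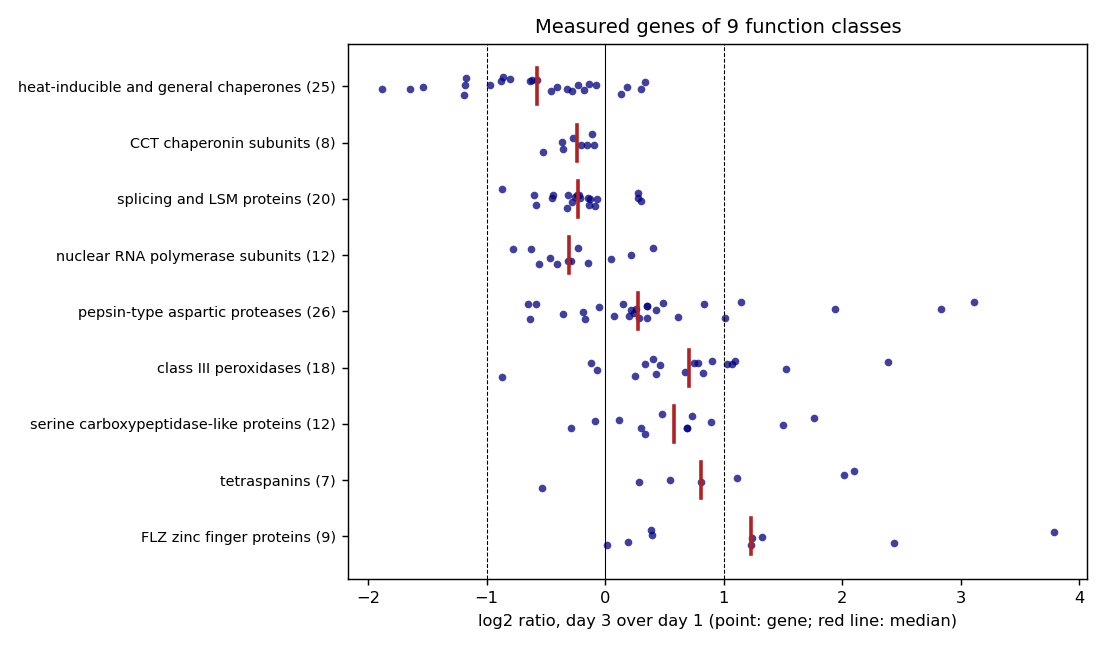
Log2 ratio, day 3 over day 1, of each measured gene (point) in 9 function classes, with the class median in red and dashed lines at 2-fold; the number of genes is in parentheses. Chaperones reach -1.88, the splicing and RNA polymerase classes gather between -0.87 and 0.40, and the FLZ and aspartic protease classes reach 3.79 and 3.12.

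Plastid-encoded genes had ratios on both sides of 0. Those for photosynthesis had a median log2 ratio of -0.43 over 47 genes (quartiles -0.76 and -0.05). Past 2-fold were 3 downward, psbN, ndhE and ndhJ, and 1 upward, atpB, beside 1.39% and 3.84% of all measured genes. Those for the plastid's own gene expression had a median of 0.43 over 21 genes, and their quartiles, -0.41 and 0.75, overlapped the range of the photosynthesis genes. The 5 past 2-fold upward, rpl36, rpl14, rpl16, rpl22 and rps19, are ribosomal protein genes of a single cluster on the plastid genome. Not all of that cluster passed 2-fold: rps3 had a log2 ratio of 0.25 and rpoA -0.44. Outside it, rps14 (-0.95), rpoB (-0.81) and rps2 (-0.67) lay below 0. Both rpl22 (1128 on day 3, 521 on day 1) and rps19 (1043 and 521) had strong signals. They were among the 10 strongest on day 3 past 2-fold, among probe sets naming 1 gene outside the low-oxygen list. Among nuclear genes, CaS, a thylakoid protein of calcium signalling, had 133 and 26.1, and SECE1 and LIL3:1, which act in thylakoid protein insertion and chlorophyll synthesis, had 29.3 and 60.6 on day 3, against 75.8 and 124 on day 1.

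Among transcription factors the bHLH family had a median log2 ratio of 0.41 over 11 genes, 2 of them measured only through day 3. Of the 11, 2 were at least 2-fold higher, beside 3.84% of all measured genes. These were bHLH121, an activator of iron uptake (122 on day 3, 46.8 on day 1), and SPT, which acts in carpel growth (64.4 and 31.3). MYBC1, a MYB-like factor linked to cold, had 157 on day 3 and a signal below 25 on day 1, at least 6.26-fold. Lower were AGL28 and AGL62, MADS-box factors: AGL28 had 74.7 on day 3 and 308 on day 1 (4.12-fold), and 63.0 and 19.1 on the later days. AGL62, known from endosperm, had a signal below 25 on day 3 and 62.7 on day 1, at least 2.51-fold. The B-box gene AT2G47890 had a signal below 25 and 62.2, at least 2.49-fold lower on day 3.

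Iron genes included the strongest bound downward among probe sets naming 1 gene outside the low-oxygen list. AT1G47400 encodes a short peptide that signals iron shortage in leaves and roots. It had a signal below 25 on day 3, against 167 on day 1, at least 6.66-fold lower, and remained below 25 on days 5 and 7. LPR2, a multicopper oxidase that acts in the root's response to low phosphate with iron, was 2.51-fold higher, with 228 and 90.8. The iron-related bHLH factors did not share 1 direction: bHLH115 had 831 on day 3 and 569 on day 1, ILR3 had 589 and 426, and PYE had 78.8 and 113. The class of 14 iron and metal genes had a median log2 ratio of 0.07.

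Hormone genes differed singly. IAA18, a repressor of auxin response, was 2.14-fold higher (78.6 on day 3, 36.7 on day 1), and YUC6, an enzyme of auxin synthesis, was at least 2.28-fold lower, with a signal below 25 and 57.0. The gibberellin receptor gene GID1A had 111 on day 3 and 44.4 on day 1 (2.51-fold), beside 196 and 173 for GID1B. The mitosis and DNA replication classes lay near the background, with a median log2 ratio of 0.10 over 20 mitosis genes and 0.16 over 22 genes of DNA replication and repair. Histones had a median of -0.27 over 6 genes, 4 below 0 and none past 2-fold. That class does not hold AT3G09480, an H2B gene named below. ATMAP65-6, a microtubule-associated protein, was the gene of the mitosis list past 2-fold, with 70.5 on day 3 and 23.5 on day 1, at least 2.82-fold. Among the proteins that place microtubules, TRM15 (58.4 on day 3) and TRM31 (55.9) were below 25 on day 1 and at least 2.33-fold and 2.24-fold higher, while SPR1, which keeps cell files straight, had 377 on day 3 and 751 on day 1.

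Stress and defence genes stood on both sides. AILP1, related to an aluminium-induced protein, had 626 on day 3 and 131 on day 1 (4.80-fold). The universal stress protein AT3G17020 had 1890 and 779 (2.43-fold), and SAH7, an allergen-like secreted protein, had 1913 and 926 (2.07-fold). These were the 2 strongest day 3 signals past 2-fold among probe sets naming 1 gene outside the low-oxygen list. COR47, a dehydrin, had 182 and 92.2, just short of 2-fold. GEK1, which is needed for tolerance of ethanol and removes D-amino acids from tRNA, was 2.37-fold higher, with 774 and 326. BGLU28, a beta-glucosidase able to break down glucosinolates, had 558 on day 3, against 2368 on day 1, 1890 on day 5 and 2378 on day 7, so the day 3 array alone was low (4.24-fold). The other 7 measured beta-glucosidases did not reach 2-fold with low signals raised to 25, and 3 of their ratios are lower bounds. UGT73D1 and UGT73B4, which attach glucose to small molecules, were at 39.7 and below 25 on day 3, against 108 and 52.5 on day 1, while UGT88A1 had 221 and 115.

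Of the remaining large differences several belong to genes of little known function. AT1G44060, annotated as a pseudogene in RefSeq, had the largest ratio downward among probe sets naming 1 gene with both signals above 25, with 34.3 on day 3, against 288 on day 1 (8.38-fold), and 308 and 42.1 on the later days. AT2G39210, a membrane transporter of the nodulin-like type, had 106 on day 3 and 449 on day 1 (4.24-fold lower), and 598 and 468 on days 5 and 7. FOLB2, an enzyme of folate synthesis, had 55.1 and 192 (3.49-fold lower). AT3G09480, a histone H2B gene, had 32.7 and 89.7 (2.75-fold lower), and AT1G35190, a 2-oxoglutarate-dependent oxygenase, had 34.2 and 94.7 (2.77-fold lower). Upward, AT2G02680, of the cysteine- and histidine-rich C1 domain family, had 487 on day 3 and 113 on day 1, a log2 ratio of 2.10, AT2G03780, a translin-like protein, 733 and 221 (3.32-fold), and AT3G02910, an AIG2-like protein, 127 and a signal below 25 (at least 5.08-fold). FHL, which helps carry phytochrome A into the nucleus, had 108 and 25.7 in these dark-grown cells. A number of these genes, AT1G44060, AT2G39210, BGLU28 and AT2G41800 among them, had day 5 signals close to or above those of day 1, and AT5G07570, AT1G74940 and AT1G66180 had day 5 signals closer to day 1 than to day 3.

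Among probe sets naming 1 gene outside the low-oxygen list and measured only through day 3, AT5G25290 had the largest bound, with 234 on day 3 and a signal below 25 on day 1, at least 9.35-fold, and it was below 25 again on day 5. AT5G02580 (152 on day 3), AT1G78780 (138) and AT1G45100 (134) were also below 25 on day 1, at least 6.10-fold, 5.52-fold and 5.36-fold higher. AT5G01720, an F-box protein, had 110 and 30.2 (3.64-fold), and AT5G01750, of the LURP-one-related family, had 339 and 94.7 (3.58-fold). Both were higher still on days 5 and 7, at 307 and 361 and at 521 and 897. ETL1, a chromatin remodeller, had 975 on day 3 and 412 on day 1 (2.37-fold).

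Downward, AT3G07090, of a family of thiol peptidases, had 214 on day 3 and 912 on day 1 (4.25-fold), and AT5G52390, a PAR1 protein, had 370 and 1106 (2.99-fold). AT3G07230, among the strongest signals, had 1012 and 2162 (2.14-fold). AT5G06190, AT1G14330 (a kelch-repeat F-box protein), AT5G45350, AT1G28540 and AT5G65685 were between 2.59-fold and 3.11-fold lower. By 1 of its probe sets the chromatin remodeller chr31 had 74.7 and 204 (2.74-fold lower), but by the other it had 29.8 on day 3 and a signal below 25 on day 1. Below 25 on day 3 were AT1G55660 (116 on day 1, at least 4.63-fold) and AT5G44400, a berberine bridge enzyme-like oxidase (82.9 on day 1, at least 3.32-fold), which had 335 on day 5. The same held for AT3G50900, AT5G53240, AT1G31760, AT1G12030 and AT3G59040, a pentatricopeptide repeat protein, with bounds from 2.35-fold to 2.97-fold.

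**Figure D5:**
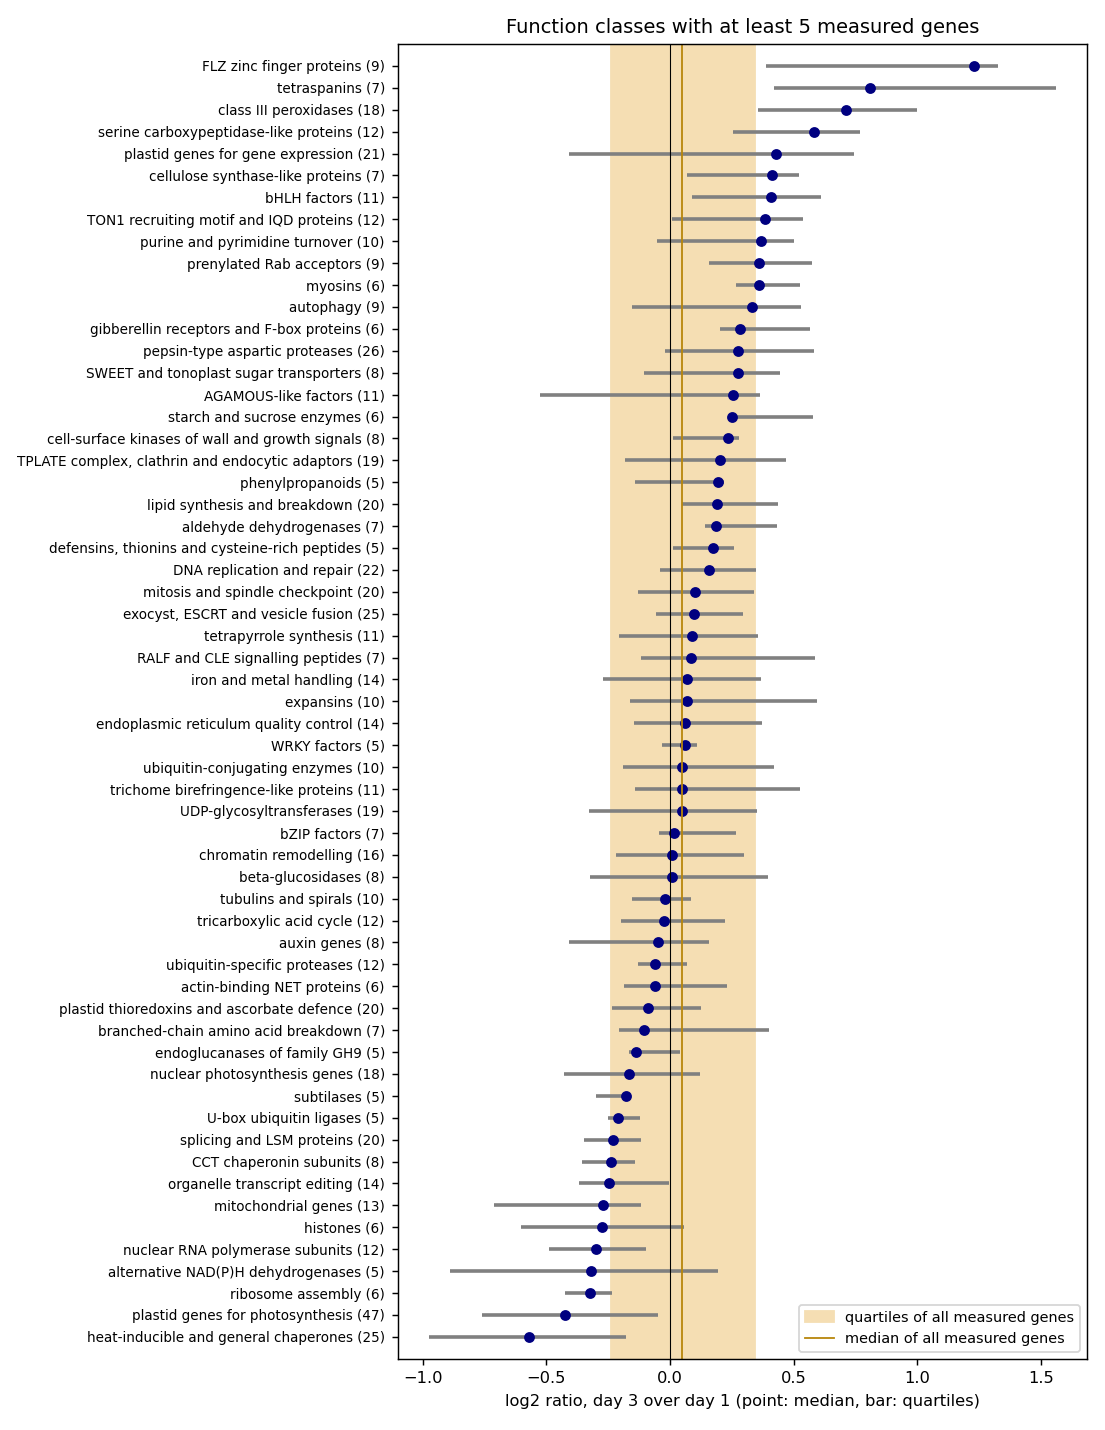
Median (point) and quartiles (bar) of the log2 ratio, day 3 over day 1, for the function classes with at least 5 measured genes, the number in parentheses; the band and line show the quartiles (-0.24 and 0.34) and median (0.05) of all 7920 measured genes. FLZ proteins, tetraspanins, peroxidases, carboxypeptidase-like proteins, the plastid genes for gene expression, cellulose synthase-like proteins, bHLH factors and some more lie to the right of the band, and plastid photosynthesis genes and chaperones lie farthest left.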

How the data were processed

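The authors deposited 1 signal intensity per probe set and array, on a linear scale, from MAS5 (version unknown here), per the submitters' processing notes. The mean signal with 2% trimmed at each end was 100.0 on both arrays. Probe sets were named from the platform's annotation (13513 with 1 gene, 503 with several, 8730 unnamed); 13436 matched RefSeq's TAIR10.1 gene table. Signals below 25 were raised to 25 and the log2 ratio taken; a gene is the mean over its measured probe sets. Neither table holds descriptions, so the 76 function classes, which may overlap, were built from gene symbols and locus codes rather than description words. What a gene known only by a locus code does is general background. Members and lists were chosen with earlier results of these data known. Named genes were ranked among probe sets naming 1 gene, without a cross-hybridisation suffix and outside the low-oxygen list. They are drawn from the 25 largest ratios in each direction with both signals above 25, the 10 largest bounds, up to 5 members of each class described (all in classes of at most 8) and the 10 highest day 3 signals past 2-fold. A co-chaperone, protease or second probe set outside this rule is named because its class is described by it and was chosen after its value was seen. Coordinates are left out because the genome build of the array's annotation is unknown here. The counting was tested on simulated data. Python 3.11.15, pandas 2.3.3, numpy 2.4.6 and matplotlib 3.10.9 were used. Alternatives were floors of 10 and 50, 4 other scalings, limits of 1.5-fold and 3-fold, and leaving out probe sets with a suffix for cross-hybridisation.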

Additional observations from a re-analysis of the deposited data

How the results depend on the processing

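The counts at 2-fold were 621 higher and 254 lower on day 3. With the floor at 10 they were 1116 and 455, and with the floor at 50 371 were higher. With both arrays at a common median 394 were higher and 448 lower. A limit of 1.5-fold gave 1894 and 1099, and 3-fold gave 174 and 59. The other 3 scalings and the removal of cross-hybridising probe sets left both counts within 1.5 times. With a common median class medians were read against 0, not against all genes, which adds the shift of all genes to them. Of 336 class medians recomputed over 69 classes, 300 stayed within the spread, 35 moved beyond it and 1 reversed: the 5 endoglucanases of family GH9, 0.19 below all genes, were 0.25 above with the floor at 10. Of 1960 recomputed ratios of 412 named probe sets, 1892 stayed within the spread between probe sets, 68 moved and 0 reversed. That spread comes from the 88 genes with 2 measured probe sets, and whether it holds for other genes was not tested. All 68 moved with the floor, 22 at 10 and 46 at 50. A common median and the hybridisation controls shift all ratios above the floor alike, by less than that spread. Those settings could therefore not move such a ratio, and their share of the total is no check on single genes. No paired analysis was possible because each day has 1 array, all with the same replicate number. With 1 array per day the precision of any ratio is unknown, and signals near 25 limit what can be seen of faint genes.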

Other observations

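Secreted signalling peptides had a median log2 ratio of 0.08 over 7 measured genes of the RALF and CLE families, and none reached 2-fold. CLE41 had 49.4 on day 3 and a signal below 25 on day 1, while CLE44, which encodes the same kind of vascular peptide, had 27.4 and 43.8. RALFL31 had 75.4 on day 3 and 42.6 on day 1. The sphingolipid genes LCB2, a subunit of the first enzyme of the pathway, and DPL1, which degrades its long-chain bases, had 247 and 109 on day 3, against 158 and 66.1 on day 1. The stromal and thylakoid ascorbate peroxidases SAPX and TAPX had 563 and 48.0 on day 3, against 313 and 26.4 on day 1. None of these 7 genes passed 2-fold with low signals raised to 25, but the ratio of CLE41 is a lower bound, at least 1.98-fold.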
